A study of Mus musculus with 4 samples.

Results

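Genes of the calcineurin and NFAT pathway were followed in sorted CD4+CD8+ double-positive thymocytes of WT mice and of mice with a conditional deletion of the splicing factor gene Srsf1. They were chosen by name, as the rows of the deposited table whose symbol is Nfatc1, Nfatc2, Nfatc3, Nfat5, Ppp3ca, Ppp3cb, Ppp3cc, Ppp3r1, Rcan1 or Cabin1, so 10 of 53715 genes. RNA was sequenced from thymus of C57BL/6 mice aged 6 to 8 weeks. The control group, WT, held 2 libraries, and the knockout group, KO, held 2 libraries from mice with the genotype LCKCre/+ Srsf1fl/fl, in which Cre under an Lck promoter acts on a floxed Srsf1 gene from early thymocyte stages on. The labels give the control genotype only as WT and do not say whether replicates came from separate animals, so the spread behind each p-value is that between libraries and may be technical.

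Calcineurin is a calcium-activated protein phosphatase made of a catalytic A subunit, a regulatory B subunit and bound calmodulin. When the T cell receptor releases calcium from internal stores, STIM and ORAI proteins open a calcium channel in the plasma membrane, calcineurin is switched on and removes phosphates from NFAT proteins, which then enter the nucleus. In double-positive thymocytes this route takes part in positive selection. Calcineurin activity is limited by RCAN1, a feedback inhibitor whose internal promoter is a known NFAT target, and by CABIN1, which also represses MEF2 factors.

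The libraries held 35862730 to 37033180 counts each. The targeted gene Srsf1 was counted 4821 and 4485 times in WT and 1839 and 1772 times in KO, which kept 38.3% of the WT level over the whole gene, and reads over the floxed part alone were not analysed here. The 8 genes listed as markers of double-positive thymocytes were Cd4, Cd8a, Cd8b1, Cd3e, Rag1, Rag2, Ptcra and Dntt. Not all of them are particular to that stage. Together they summed to 7200 to 7450 counts-per-million (CPM) in WT and 10403 to 10827 CPM in KO. The rise was uneven, from a log2 fold change of 0.17 for Cd4 (edgeR adjusted p = 0.0836) to 1.15 for Rag2 (edgeR adjusted p = 0.000206). Rag1 had the largest gain in CPM, from 2092 and 1966 in WT to 3833 and 3640 in KO. Summed markers of B cells, of myeloid and dendritic cells, of erythroid cells, of epithelium and stroma and of NK cells each stayed under 22.3 CPM in every library. Within those lists Krt5, Foxn1 and Ncr1 had 0 counts in all libraries. The 2 gamma delta T cell markers summed to 36.2 and 43.7 CPM in WT and to 58.8 and 52.1 CPM in KO, and they went opposite ways. Trdc had 1133 and 1436 counts in WT and 2093 and 1821 in KO (log2 fold change 0.59, edgeR adjusted p = 0.0133), whereas Sox13 had 164 and 160 in WT and 84 and 76 in KO (-1.04, edgeR adjusted p = 0.119). The part of any such cells in the values below was not tested.

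The stretches of DNA before 4 transcript starts are shown, for the members that the test called, Ppp3cb and Ppp3r1, and for Rcan1. Rcan1 was taken because the 2 starts shown differ in their known dependence on calcineurin, and its other annotated starts are not shown. Each line gives the 250 bases before the start, read 5′ to 3′ on the gene's strand, from RefSeq on GRCm38.p6. The core of the NFAT site, GGAAA or its reverse complement TTTCC, is in capitals.

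Rcan1 upstream start, minus strand, chr16:92466170-92466419: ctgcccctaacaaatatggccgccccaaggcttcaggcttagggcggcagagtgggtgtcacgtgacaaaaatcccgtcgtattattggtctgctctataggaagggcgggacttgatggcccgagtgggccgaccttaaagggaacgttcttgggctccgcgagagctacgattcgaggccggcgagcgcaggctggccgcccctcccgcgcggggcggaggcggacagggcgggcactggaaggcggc
Rcan1 internal start, minus strand, chr16:92400079-92400328: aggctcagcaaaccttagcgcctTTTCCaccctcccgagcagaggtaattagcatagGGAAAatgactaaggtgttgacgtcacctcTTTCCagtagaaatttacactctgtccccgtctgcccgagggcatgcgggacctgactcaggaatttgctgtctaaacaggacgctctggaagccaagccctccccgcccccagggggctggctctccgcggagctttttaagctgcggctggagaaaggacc
Ppp3cb, minus strand, chr14:20546574-20546823: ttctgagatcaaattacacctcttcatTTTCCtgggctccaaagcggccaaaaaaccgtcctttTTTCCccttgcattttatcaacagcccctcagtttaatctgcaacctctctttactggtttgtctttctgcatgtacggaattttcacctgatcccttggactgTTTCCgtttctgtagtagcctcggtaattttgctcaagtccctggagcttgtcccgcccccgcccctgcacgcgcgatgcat
Ppp3r1, plus strand, chr11:17159048-17159297: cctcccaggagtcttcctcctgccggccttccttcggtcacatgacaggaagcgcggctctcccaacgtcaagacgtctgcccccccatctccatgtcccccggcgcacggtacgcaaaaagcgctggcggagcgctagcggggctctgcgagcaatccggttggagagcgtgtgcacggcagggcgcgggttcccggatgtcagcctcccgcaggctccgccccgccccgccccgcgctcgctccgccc

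The internal Rcan1 window and the Ppp3cb window held 3 GGAAA matches each over both strands, and the upstream Rcan1 window and the Ppp3r1 window held 0. The internal Rcan1 window also held 1 TGANTCA (the letters of an AP-1 site) and 1 TGACGTCA (those of a cyclic AMP response element), none overlapping a GGAAA match, and the other 3 windows held neither. Among the 32851 RefSeq windows of 250 bases, 55.6% held at least 1 GGAAA match and 6.39% held 3 or more, 6.75% held TGANTCA and 1.55% held TGACGTCA. The Ppp3r1 window was 70.8% G or C and the Ppp3cb window 48.4%, against a median of 52.4% over all windows. Such matches describe letters only. Of the 10 members, 7 had a window in the RefSeq table, with 10 windows in all, and Nfatc1, Ppp3ca and Ppp3cc had none there.

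Most of the 10 core genes of the pathway did not pass the test between KO and WT. The catalytic subunit gene Ppp3cb was higher in KO by 0.30 log2 units and the regulatory subunit gene, Ppp3r1, was lower by 0.29, and the other 8 members were not called. Counts were tested with the edgeR quasi-likelihood test on all 16588 genes that passed a filter on low counts, and a gene was called at a Benjamini-Hochberg adjusted p under 0.05. All 10 members passed that filter. Of them 1 was called higher, 1 lower and 8 were not called. Of all genes tested, 14.5% were called, 6.63% higher and 7.89% lower, so 2 of 10 members is near the background. The median log2 fold change of the members was -0.06, beside 0.00 over all genes tested. In these bulk samples fewer cells of a type and less RNA per cell cannot be told apart.

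**Figure D1:**
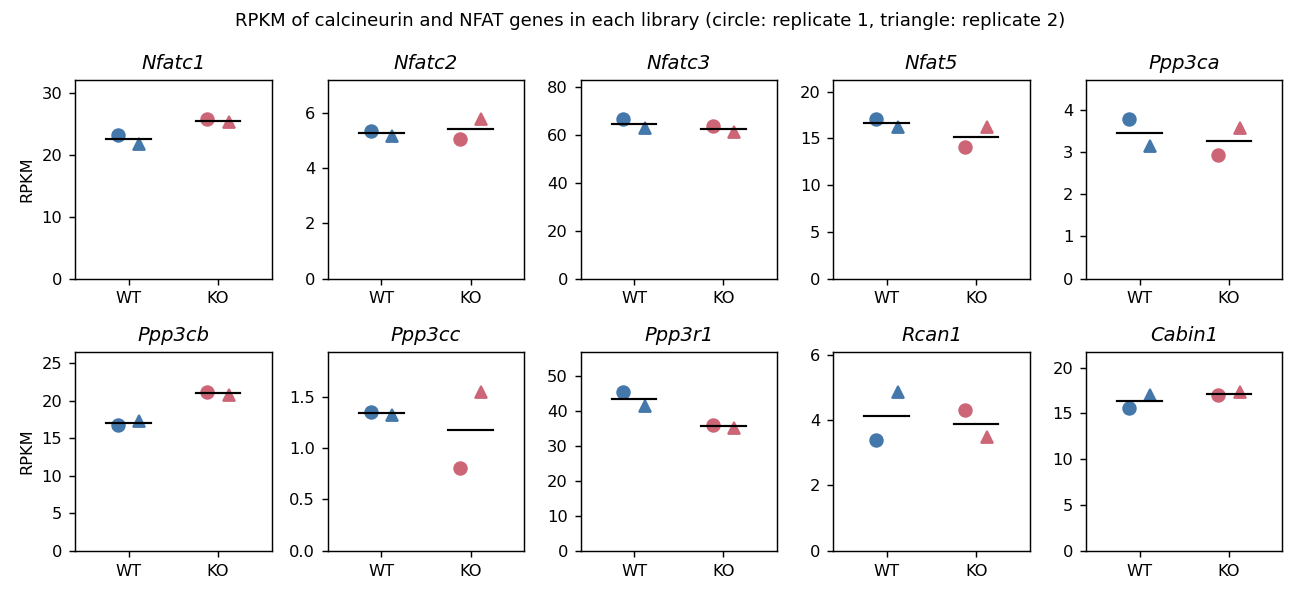
RPKM (reads scaled by gene length and by library total) of the 10 members in each library, on axes that start at 0, with a black bar at the mean of each pair. Both KO points lie above both WT points for Nfatc1 and Ppp3cb and below them for Ppp3r1, and the pairs overlap for the other 7 genes.

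Levels between genes are compared per length, in the authors' RPKM. Nfatc3 was the most abundant member, and 4.28% of tested genes had a higher mean RPKM. In WT the order of mean RPKM was Nfatc3, Ppp3r1, Nfatc1, Ppp3cb, Nfat5, Cabin1, Nfatc2, Rcan1, Ppp3ca and Ppp3cc. The WT libraries did not separate Ppp3cb (16.8 and 17.3 RPKM) from Nfat5 (17.0 and 16.2 RPKM) or Cabin1 (15.6 and 17.1 RPKM), nor Rcan1 from Ppp3ca. In KO, Ppp3cb at 21.2 and 20.8 RPKM stood above Cabin1 at 17.0 and 17.4 RPKM and above Nfat5 at 14.1 and 16.2 RPKM.

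Among the transcription factors, Nfatc3 (ENSMUSG00000031902.10, chromosome 8, 106058840 to 106130537, plus strand, GRCm38), the main NFAT gene of these libraries, had 66.5 and 62.8 RPKM in WT and 63.8 and 61.4 RPKM in KO. The groups overlapped, and the log2 fold change was -0.04 (SE 0.07, approximate 95% interval -0.19 to 0.10, edgeR adjusted p = 0.747). A small part of its exons, 219 bases, also belongs to Esrp2 on the opposite strand. Nfatc2 (ENSMUSG00000027544.16, chromosome 2, 168476410 to 168601657, minus strand), which encodes NFAT1, a form abundant in resting mature T cells, was far lower, with 5.34 and 5.17 RPKM in WT and 5.06 and 5.75 RPKM in KO. Its groups overlapped as well, with a log2 fold change of 0.04 (95% interval -0.20 to 0.29).

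Nfatc1 (ENSMUSG00000033016.15, chromosome 18, 80606205 to 80713071, minus strand), which encodes an NFAT protein with a short inducible form made from its own NFAT-responsive promoter, had 23.3 and 21.7 RPKM in WT and 25.7 and 25.3 RPKM in KO. Both KO libraries lay above both WT libraries. The log2 fold change of 0.18 (SE 0.08) had an unadjusted p of 0.0387 and an edgeR adjusted p of 0.153, so Nfatc1 was not called, and counts per gene do not resolve its isoforms. Nfat5 (ENSMUSG00000003847.16, chromosome 8, 107293470 to 107379517, plus strand), the family member that responds to osmotic stress and lacks the calcineurin docking region, had 17.0 and 16.2 RPKM in WT and 14.1 and 16.2 RPKM in KO. Only KO replicate 1 was low, and the log2 fold change was -0.13 (95% interval -0.31 to 0.06, edgeR adjusted p = 0.384).

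Of the 3 catalytic subunit genes 1 was called. Ppp3cb (ENSMUSG00000021816.11, chromosome 14, 20499364 to 20546573, minus strand), which encodes the A beta subunit, had 5322 and 5560 counts in WT and 6919 and 6662 in KO. Per length this was 16.8 and 17.3 RPKM in WT and 21.2 and 20.8 RPKM in KO, with a gap between the groups that was wide beside the gaps within them. The log2 fold change was 0.30 (SE 0.08, 95% interval 0.13 to 0.47, edgeR adjusted p = 0.0198). Ppp3cb lost its call when WT replicate 1 was left out (log2 fold change 0.29, edgeR adjusted p = 0.0994) and when WT replicate 2 was (0.32, edgeR adjusted p = 0.0668).

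Ppp3ca (ENSMUSG00000028161.17, chromosome 3, 136670124 to 136937727, plus strand), which encodes the A alpha subunit, had 3.77 and 3.13 RPKM in WT and 2.94 and 3.56 RPKM in KO. The pairs interleaved, and the log2 fold change was -0.08 (95% interval -0.43 to 0.26). Ppp3cc (ENSMUSG00000022092.11, chromosome 14, 70217865 to 70289471, minus strand), which encodes the A gamma subunit best known from testis, was the least abundant member, with 145 and 144 counts in WT and 89 and 168 in KO. The exact Poisson 95% intervals of the KO counts, 71.5 to 110 and 144 to 195, did not meet, so the KO libraries differed from each other by more than counting error while the WT libraries did not. The log2 fold change of Ppp3cc was -0.18 with a 95% interval of -1.10 to 0.74, which includes changes of the size seen for Ppp3cb in either direction.

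Ppp3r1 (ENSMUSG00000033953.10, chromosome 11, 17159263 to 17200375, plus strand) encodes a form of the calcium-binding B subunit that every calcineurin dimer needs. It had 5260 and 4876 counts in WT and 4297 and 4134 in KO, or 45.4 and 41.4 RPKM against 35.9 and 35.2 RPKM. Both KO libraries were below both WT libraries, and the level fell by 0.29 on the log2 scale (SE 0.08, 95% interval -0.47 to -0.10, edgeR adjusted p = 0.0408). Across members the groups did not overlap for 2 genes that were higher in KO and 1 that was lower, where 55.9% of all tested genes did not overlap, 27.8% with KO above and 28.1% with KO below.

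Ppp3r1 shares 462 exon bases, 14.3% of its exon length, with Wdr92 on the same strand, so reads there cannot be assigned to either gene. Wdr92 had 467 and 673 counts in WT and 1084 and 880 in KO (log2 fold change 0.77, SE 0.20, edgeR adjusted p = 0.0247), and its part in the Ppp3r1 result was not tested. Ppp3r1 lost its call when WT replicate 1 was left out (log2 fold change -0.21, edgeR adjusted p = 0.277). With KO replicate 1 left out the edgeR adjusted p was 0.0787, and with KO replicate 2 left out it was 0.0745. On log2 of the deposited RPKM plus 0.5, limma called neither Ppp3cb (adjusted p = 0.224) nor Ppp3r1 (adjusted p = 0.257), nor any other gene. The testis form of the B subunit, Ppp3r2, had 0 counts in all libraries, and a count of 0 allows up to 3 counts, or 0.0810 to 0.0837 CPM.

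**Figure D2:**
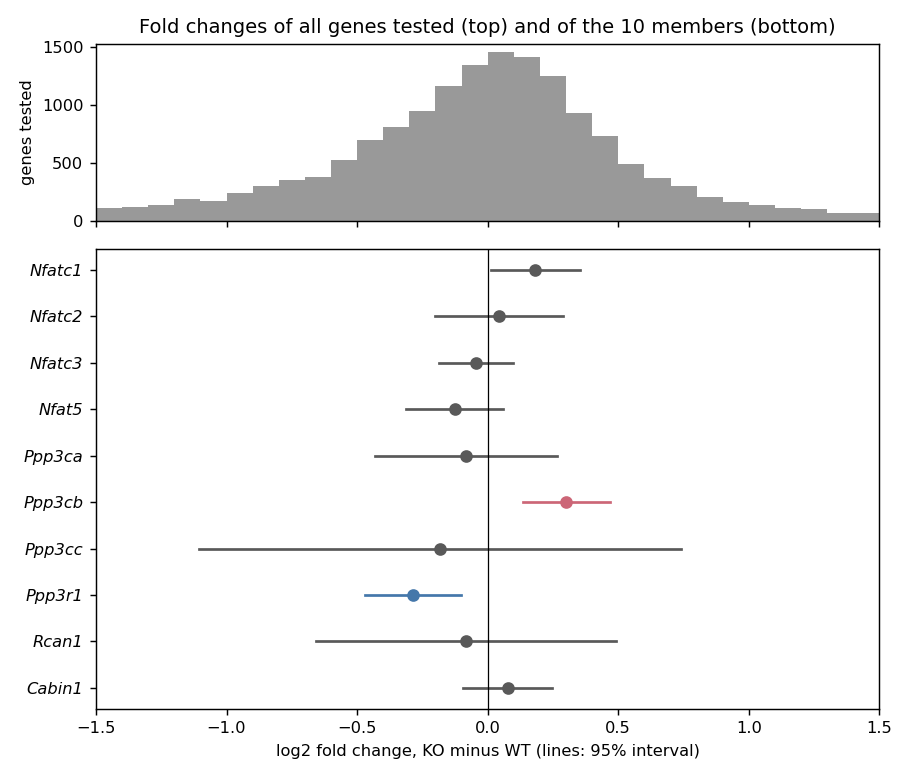
Log2 fold changes of KO minus WT, with a histogram of all genes tested between -1.5 and 1.5 above and the 10 members below, each as a point with its approximate 95% interval. The intervals of Ppp3cb (0.13 to 0.47) and Ppp3r1 (-0.47 to -0.10) lie on opposite sides of 0, and the widest belong to Ppp3cc and Rcan1.

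The balance between subunits was described by shares of summed RPKM in each library. Ppp3cb made up 76.7% and 79.5% of catalytic subunit RPKM in WT and 85.0% and 80.3% in KO. Ppp3ca made up 17.1% and 14.4% in WT and 11.8% and 13.8% in KO, and Ppp3cc 6.17% and 6.08% in WT and 3.23% and 5.97% in KO. The groups did not overlap for any of these shares, although WT replicate 2 and KO replicate 2 lay within 1 percentage point of each other for each of them. The shares are parts of the same sum, so they are not independent, and a higher share of Ppp3cb lowers the rest. The RPKM of Ppp3ca and of Ppp3cc overlapped between the groups, and 55.9% of all tested genes did not overlap in RPKM. The summed catalytic RPKM was 22.0 and 21.7 in WT and 24.9 and 25.9 in KO. Divided by the RPKM of Ppp3r1, a ratio chosen after the values were seen, it was 0.483 and 0.525 in WT and 0.694 and 0.736 in KO. With 2 against 2 libraries an exact two-sided permutation test cannot go below p = 0.33, so these shares and ratios are given as descriptions, with no test.

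Among the NFAT genes Nfatc3 made up 59.3% of the summed RPKM in both WT libraries and 58.7% and 56.5% in KO. The share of Nfatc1 was 20.8% and 20.5% in WT and 23.7% and 23.2% in KO, and that of Nfatc2 stayed between 4.65% and 5.29% in all libraries. Nfat5 made up 15.2% and 15.3% in WT and 13.0% and 14.9% in KO. The summed NFAT RPKM was 112 and 106 in WT and 109 in both KO libraries, so the groups overlapped in the total. Nfatc4, the remaining calcium-regulated NFAT gene, had 2 counts in WT replicate 1 and 0 in the other libraries.

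**Figure D3:**
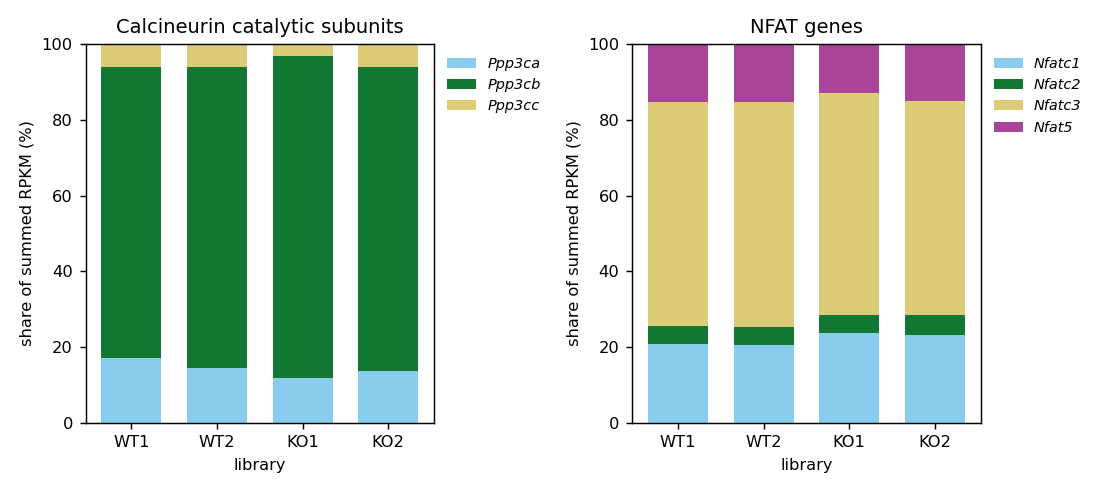
Share of summed RPKM (%) taken by each gene in each library, for the 3 calcineurin catalytic subunit genes on the left and the 4 NFAT genes on the right. Ppp3cb holds 76.7% to 85.0% of the catalytic total and Nfatc3 56.5% to 59.3% of the NFAT total, and the bars of WT and KO differ by a few percentage points.

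The inhibitors among the members did not pass the test. Rcan1 (ENSMUSG00000022951.15, chromosome 16, 92391953 to 92470867, minus strand) had 304 and 445 counts in WT and 399 and 317 in KO, or 3.38 and 4.86 RPKM against 4.30 and 3.48 RPKM. Its KO libraries lay between the WT libraries, and the WT pair differed by 0.52 log2 units. The log2 fold change was -0.08 (SE 0.26, 95% interval -0.66 to 0.49, edgeR adjusted p = 0.904). Counts per gene add the transcripts of all starts, among them the upstream and internal starts shown above, so a shift between starts was not analysed here. Cabin1 (ENSMUSG00000020196.10, chromosome 10, 75646112 to 75764341, minus strand) had 15.6 and 17.1 RPKM in WT and 17.0 and 17.4 RPKM in KO, and its groups overlapped (log2 fold change 0.08, 95% interval -0.09 to 0.25).

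Other genes of the pathway were taken from 6 lists of 80 genes in all. Of 69 that passed the filter 10 were higher and 14 lower, or 34.8%, beside 14.5% of all genes tested, and the difference from the members was not tested. Their median log2 fold change was 0.02. The lists were chosen with earlier results of these data known, and the background was not matched for abundance. The shares are therefore descriptions and cannot show an effect on the pathway as a whole. Without each library in turn, 16 of these 24 calls held in every case.

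**Figure D4:**
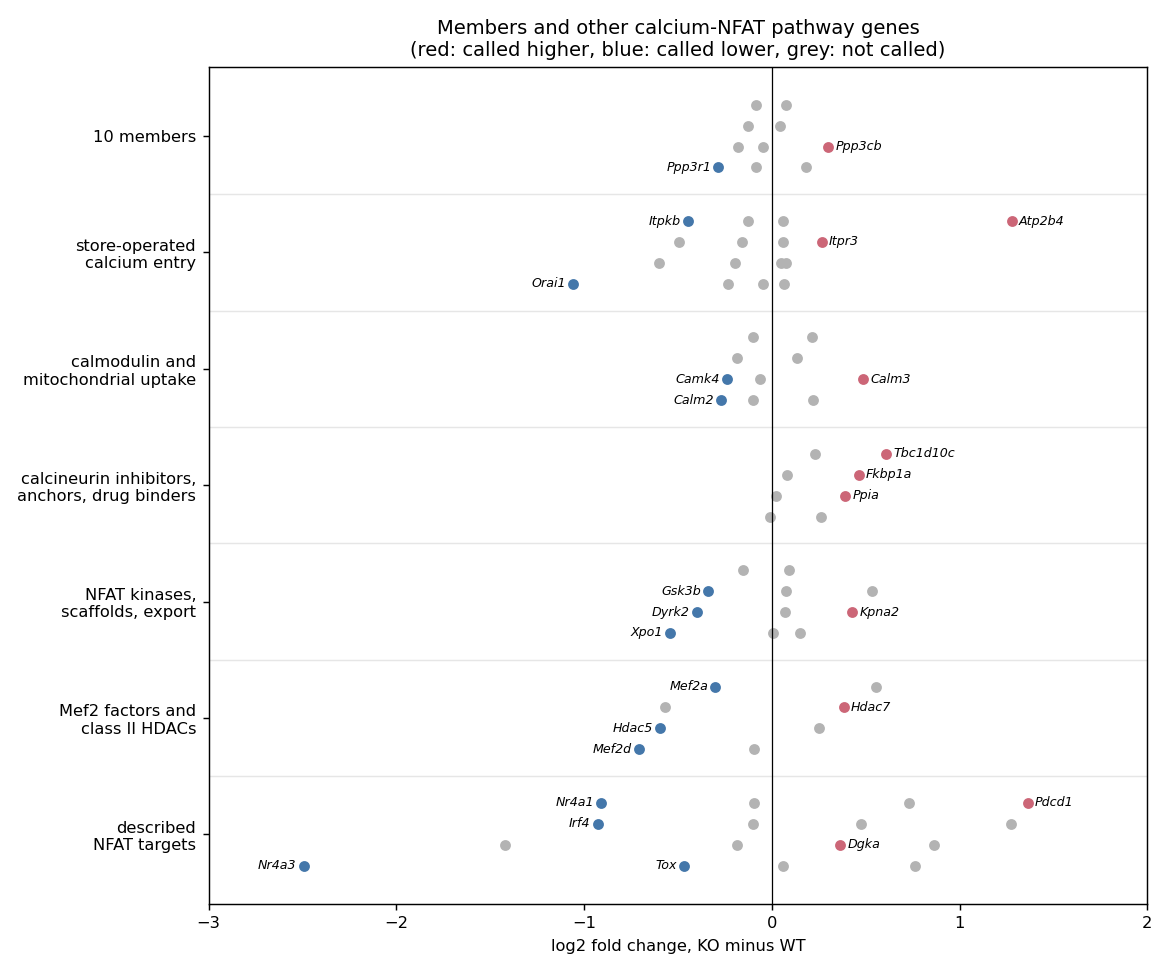
Log2 fold changes of KO minus WT for the 10 members and the 69 tested genes of 6 other pathway lists, 1 point a gene, with called genes named. The member points lie between -0.29 and 0.30, while called genes of the other lists reach -2.49 (Nr4a3) and 1.36 (Pdcd1).

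Upstream of calcineurin, in store-operated calcium entry and its triggers, 2 of 16 tested genes rose, 2 fell and 12 missed the threshold, at a median log2 fold change of -0.09. Orai1, the main pore subunit of the calcium release-activated channel, had 29.2 and 27.1 RPKM in WT and 11.8 and 15.2 RPKM in KO. The groups were well apart, and Orai1 fell by 1.06 on the log2 scale (SE 0.14, edgeR adjusted p = 0.000427), in every fit that left out 1 library too. Its paralog Orai2 was more abundant, with 50.8 and 50.7 RPKM in WT and 45.6 and 43.0 RPKM in KO, and was not called (log2 fold change -0.20, edgeR adjusted p = 0.0928). The calcium sensor gene Stim1 was not called either (-0.13, edgeR adjusted p = 0.342). Orai2 and Stim1 were named after their values were seen.

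Itpkb, a kinase that turns the messenger IP3 into IP4 and is needed for positive selection, had 86.0 and 79.5 RPKM in WT and 55.7 and 65.7 RPKM in KO, and fell by 0.44 on the log2 scale (SE 0.09, edgeR adjusted p = 0.00422). Itpr3, an IP3 receptor, rose by less (log2 fold change 0.27, edgeR adjusted p = 0.0454). It lost this call when WT replicate 1, WT replicate 2 or KO replicate 2 was left out, and with the replicate number as a block (edgeR adjusted p = 0.0553). The calcium pump gene Atp2b4 rose from 0.214 and 0.295 RPKM to 0.597 and 0.635 RPKM (log2 fold change 1.28, edgeR adjusted p = 0.0241), a call that needed WT replicate 1, KO replicate 1 and KO replicate 2. The most abundant gene of this list that was not called was Saraf, a brake on STIM1 (0.08, SE 0.07).

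Calmodulin, which carries the calcium signal to calcineurin, is made from several genes with the same protein product. Calm3 had 97.7 and 95.9 RPKM in WT and 136 and 135 RPKM in KO and rose (log2 fold change 0.48, SE 0.07, edgeR adjusted p = 0.000782). Calm2 had 260 and 269 RPKM in WT and 224 and 214 RPKM in KO and fell (-0.27, edgeR adjusted p = 0.0216), a call that needed both WT libraries. In the list of calmodulin, its kinases and mitochondrial calcium uptake, 1 of 10 rose, 2 fell and 7 missed the threshold, at a median of -0.08. The other gene that fell was Camk4, a calmodulin-dependent kinase of thymocytes (-0.24, edgeR adjusted p = 0.0483), which was not called without WT replicate 2 (-0.16), without KO replicate 1 (-0.19) or with upper-quartile factors (-0.23).

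In the list of calcineurin inhibitors, anchors and drug-binding proteins 3 of 8 tested genes rose and 5 missed the threshold, at a median log2 fold change of 0.25. The 8 include a gene for an NFAT-interacting protein, which is outside these classes and was not called. Tbc1d10c (carabin), an inhibitor of calcineurin and Ras in T cells, had 124 and 107 RPKM in WT and 178 and 175 RPKM in KO (log2 fold change 0.61, SE 0.09, edgeR adjusted p = 0.000571). Fkbp1a (FKBP12), which binds calcineurin when loaded with the drug tacrolimus, rose from 38.4 and 39.4 to 52.7 and 54.4 RPKM (0.46, edgeR adjusted p = 0.00177). Ppia (cyclophilin A), the partner of the drug ciclosporin, rose from 150 and 160 to 221 and 185 RPKM (0.39, edgeR adjusted p = 0.00742). Ppia has many processed copies in the genome, so its counts are uncertain. GENCODE M21 places another gene over 1286 exon bases of Tbc1d10c on the same strand, 35.5% of its exon length there. The deposited length of Tbc1d10c was 1758 bases, against 3623 exon bases in GENCODE M21. The part of this overlap in the Tbc1d10c result was not tested. Fkbp8 was the most abundant gene of the list that was not called (0.08, SE 0.07).

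Among kinases, scaffolds and nuclear import or export factors listed for NFAT, 1 of 11 tested genes rose, 3 fell and 7 missed the threshold, at a median of 0.07. Xpo1 (exportin 1), the nuclear export receptor, had 26.6 and 25.7 RPKM in WT and 18.4 and 17.5 RPKM in KO (log2 fold change -0.54, SE 0.08, edgeR adjusted p = 0.000745). The NFAT kinase genes Dyrk2 (-0.40, edgeR adjusted p = 0.0053) and Gsk3b (-0.34, edgeR adjusted p = 0.0189) fell too. Gsk3b was no longer called when WT replicate 1 (-0.33) or KO replicate 1 (-0.22) was left out. Kpna2, an importin alpha gene, rose (0.43, edgeR adjusted p = 0.0389), and was no longer called when WT replicate 1 (0.44), WT replicate 2 (0.42) or KO replicate 1 (0.28) was left out. Csnk1g2 was the most abundant gene of the list that was not called (0.07, SE 0.07).

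Downstream of CABIN1 and calcineurin, 1 of 8 genes of MEF2 factors and class II histone deacetylases rose, 3 fell and 4 missed the threshold, at a median of -0.20. Mef2d had 240 and 242 RPKM in WT and 141 and 154 RPKM in KO and fell by 0.71 on the log2 scale (SE 0.07, edgeR adjusted p = 3.21e-05). Mef2a fell by less (-0.30, edgeR adjusted p = 0.0127), and this call needed WT replicate 1. Hdac5, which represses MEF2 targets, fell (-0.60, edgeR adjusted p = 0.00046), whereas Hdac7, the class II deacetylase that MEF2D recruits in thymocytes, rose from 231 and 219 to 290 and 296 RPKM (0.38, SE 0.06, edgeR adjusted p = 0.00116). Mef2b was not called (0.25, SE 0.35).

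Of 22 genes described as NFAT targets in T cells 16 passed the filter, of which 2 rose, 4 fell and 10 missed the threshold, at a median log2 fold change of -0.02. Those that fell were Nr4a3 (-2.49), Nr4a1 (-0.91), Irf4 (-0.93) and Tox (-0.47), and the list was written with the decreases of Nr4a3 and Nr4a1 already known. Irf4, a transcription factor scaled to receptor signal strength, had 3.43 and 3.35 RPKM in WT and 1.75 and 1.80 RPKM in KO (edgeR adjusted p = 0.0129). Tox, a nuclear factor needed for CD4 lineage development, had 13.2 and 14.0 RPKM in WT and 9.14 and 10.5 RPKM in KO (edgeR adjusted p = 0.00829).

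In the same list Dgka, a lipid kinase that dampens receptor signals, rose from 126 and 119 to 151 and 163 RPKM (log2 fold change 0.36, edgeR adjusted p = 0.00462). Pdcd1, which encodes the inhibitory receptor PD-1, rose from 1.36 and 1.42 to 2.57 and 4.56 RPKM (1.36, edgeR adjusted p = 0.0321). The Pdcd1 call needed both WT libraries, and when KO replicate 2 was left out the log2 fold change was 0.88 (edgeR adjusted p = 0.276). Egr2, a zinc finger factor that NFAT induces during positive selection, had 4.86 and 4.42 RPKM in WT and 3.87 and 4.77 RPKM in KO, with overlapping groups (-0.10, SE 0.21, edgeR adjusted p = 0.836). The cytokine genes Il3 and Csf2 had 0 counts in all libraries.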

How the data were processed

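The authors deposited gene counts per library and a table of RPKM with gene lengths. Each deposited RPKM equals the count divided by length and library total, within a relative tolerance of 1e-06. The submitters' processing notes name the aligner STAR 2.6.0a, the counter HTSeq 0.6.1, DESeq2 1.24.0 and, as build, GRCm38. Whether counting used strand, and which annotation release, is not given in the sources used here. Reads over exon bases that genes share may therefore be mixed or left out of the counts, whatever the strands of the genes.

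Counts were tested with edgeR 4.0.16 in R 4.3.3 (TMM factors, filterByExpr, robust quasi-likelihood fit, genotype as the only term), adjusted by Benjamini-Hochberg over 16588 genes. The test was tried on simulated data. Standard errors come from the log2 fold change and the F statistic, and the 95% intervals from them by the t distribution. Intervals and limits on counts cover counting error only.

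Positions come from GENCODE release M21 (GRCm38), to which all 10 member identifiers matched, 8 with the same version. Promoter windows come from RefSeq (GRCm38.p6). Figures were drawn with matplotlib 3.10.9.

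Alternatives were other scaling factors and filters, DESeq2 1.42.0, limma-voom 3.58.1, a replicate block, leaving out 1 library at a time (same tested genes), and limma on log2 RPKM plus 0.5 or 0.1. The members and lists were chosen with earlier results of these data known. Named genes are all members, Srsf1, in each list up to 4 called genes in each direction and the most abundant one not called. The genes at 0, Nfatc4, Orai2, Stim1, Esrp2 and Wdr92 were named after their values were seen. A gene that meets this rule is not reported here.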

Additional observations from a re-analysis of the deposited data

How the results depend on the processing

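With limma on log2 RPKM, no gene passed, the targeted Srsf1 included (log2 fold change -1.34 and limma adjusted p = 0.0977 with 0.5 added). A call lost under this setting therefore does not set the members apart from other genes. With 0.5 added, 0 genes of all those tested were called higher and 0 lower, 0 members and 0 pathway genes in either direction, and 3667 genes, 1 member and 22 pathway genes had an unadjusted p under 0.05. With 0.1 added these counts were 0 too, and 3359 genes, 0 members and 19 pathway genes had an unadjusted p under 0.05. By edgeR, leaving out 1 library gave 0 to 1 members higher and 0 to 1 lower. With other scaling factors, other filters, DESeq2, limma-voom and the replicate block, Ppp3cb was called higher and Ppp3r1 lower each time. Log2 fold changes over all alternatives ran from 0.29 to 0.32 for Ppp3cb and from -0.36 to -0.21 for Ppp3r1. The 8 other members were called under none of the 14 alternatives. The sign of the log2 fold change turned for Nfatc2, Nfatc3, Ppp3ca, Ppp3cc and Rcan1 in fits that left out 1 library, with none of these values called. The replicate numbers share no stated source, and the deviations of the libraries numbered 1 from their group means had a correlation of -0.04 over genes. With these numbers as a replicate block, 1 member was called higher and 1 lower, as without it. The 95% intervals of Ppp3cc and Rcan1 include changes of the size of those of Ppp3cb and Ppp3r1 in either direction. Those of Ppp3ca (-0.43 to 0.26) and Nfat5 (-0.31 to 0.06) include a decrease of that size, and that of Nfatc1 (0.01 to 0.35) an increase. That of Nfatc2 (-0.20 to 0.29) just includes an increase of the size of the Ppp3r1 change, but not of the size of the Ppp3cb change. The exact Poisson intervals of the KO pair for Ppp3cc, and of the WT pair and the KO pair for Rcan1, do not overlap. The same holds in WT, in KO or in both for every other member except Ppp3cb. Among these is the WT pair of Ppp3r1, with intervals of 5119 to 5404 and 4740 to 5015 counts.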
